A study of Homo sapiens with 2 samples.

Results

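Heat shock proteins and their partner chaperones were compared between ALDEFLUOR positive (ALDH+) and ALDEFLUOR negative (ALDH-) cells of RMG1, an ovarian cancer cell line from a clear cell adenocarcinoma. The members were chosen by gene name: genes of the HSPA, HSPB, HSPD, HSPE, HSPH, HSP90A, DNAJ, CCT, BAG and HSF series, with TCP1, STIP1 and AHSA1. HSPA5, HSPBAP1 and HSP90B1 were left out by the rule. In all, 100 of the 27267 genes named on the array were members, and they were covered by 132 of its 34127 probes. Of these 100 genes, 78 had a probe well above background on both arrays in ALDH+ or in ALDH- cells and are called measured, as were 13720 genes of the whole array.

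The ALDEFLUOR assay loads living cells with a fluorescent substrate of aldehyde dehydrogenase, and the inhibitor DEAB sets the negative gate. Both populations came from RMG1 cultured in DMEM/F12 with fetal bovine serum, with no treatment other than the assay itself. ALDH+ and ALDH- cells each gave 1 RNA extract, and both extracts were hybridized together on 2 two-color arrays, the second with swapped dyes. Array 1 carried ALDH+ RNA in Cy5 and array 2 carried it in Cy3. The arrays therefore repeat the measurement and not the sort, the SD given here is technical, and no test between the populations was possible. In such sorted populations, fewer cells with a transcript and less of it in each cell cannot be told apart. The methods give AMOC2 as the source of the RNA and the sample labels give RMG1, which the results also name. On the arrays, all 8 epithelial and clear cell carcinoma markers were measured, with a median log2 ratio of -0.04 and a range from -0.74 for PAX8, the 1 marker past 1.5-fold (lower), to 0.13 for KRT19. Of 10 leukocyte markers, 4 were measured, with log2 ratios from -0.15 for CD3D to 0.45 for CD14, and of 7 fibroblast markers none (0) was.

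Heat shock proteins keep other proteins folded. HSP70 (the HSPA genes) binds exposed hydrophobic stretches in a cycle of ATP hydrolysis. J-domain proteins (the DNAJ genes) deliver clients and start that hydrolysis. Nucleotide exchange factors, among them most BAG proteins and HSP110 (HSPH1), reset the cycle. HSP90 completes the folding of kinases and receptors together with cochaperones such as STIP1 and AHSA1, whereas the CCT ring folds actin and tubulin and the HSPD1-HSPE1 chamber works in mitochondria. Small heat shock proteins hold unfolded proteins without ATP. Heat shock factors, HSF1 above all, bind heat shock elements, which are inverted repeats of nGAAn, in the promoters of the inducible members, and many tumors keep this program active without heat.

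The promoters of 5 members are shown because they carry these elements and belong to members on both sides of the comparison: DNAJB1, HSPA6 and HSPA8 were higher in ALDH+ cells and HSP90AA1 and HSPD1 were lower. Each line gives the 250 bases before a RefSeq transcription start (GRCh38.p14), in lower case with every GAANNTTC or TTCNNGAA in capitals. Both motifs read the same on either strand, and overlapping matches merge into longer runs of capitals.
DNAJB1 promoter: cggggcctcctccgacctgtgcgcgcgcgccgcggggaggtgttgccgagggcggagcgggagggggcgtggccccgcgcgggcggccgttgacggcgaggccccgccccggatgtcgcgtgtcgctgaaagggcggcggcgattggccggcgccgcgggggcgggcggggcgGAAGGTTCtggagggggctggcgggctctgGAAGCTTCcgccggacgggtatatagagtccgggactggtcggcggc
HSPA6 promoter: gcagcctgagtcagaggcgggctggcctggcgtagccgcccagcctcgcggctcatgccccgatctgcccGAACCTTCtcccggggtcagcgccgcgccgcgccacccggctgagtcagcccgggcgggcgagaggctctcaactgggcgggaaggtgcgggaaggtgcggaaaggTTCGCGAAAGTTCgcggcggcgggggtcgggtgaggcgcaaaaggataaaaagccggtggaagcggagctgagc
HSPA8 promoter: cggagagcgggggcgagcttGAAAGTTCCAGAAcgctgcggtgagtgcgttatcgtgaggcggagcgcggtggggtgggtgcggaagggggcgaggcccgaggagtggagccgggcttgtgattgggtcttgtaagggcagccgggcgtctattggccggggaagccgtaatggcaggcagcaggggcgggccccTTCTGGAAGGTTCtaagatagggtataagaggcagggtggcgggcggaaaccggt
HSP90AA1 promoter: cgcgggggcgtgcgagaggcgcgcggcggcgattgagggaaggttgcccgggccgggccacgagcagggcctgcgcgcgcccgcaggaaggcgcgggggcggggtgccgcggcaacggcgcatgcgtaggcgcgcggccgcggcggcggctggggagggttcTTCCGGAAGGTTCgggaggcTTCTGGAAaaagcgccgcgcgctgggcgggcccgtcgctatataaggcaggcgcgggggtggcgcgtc
HSPD1 promoter: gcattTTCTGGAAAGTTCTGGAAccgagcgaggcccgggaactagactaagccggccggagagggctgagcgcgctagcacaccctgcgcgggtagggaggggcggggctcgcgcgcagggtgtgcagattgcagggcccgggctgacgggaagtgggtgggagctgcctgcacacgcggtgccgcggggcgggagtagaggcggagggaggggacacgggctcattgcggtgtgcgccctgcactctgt
The DNAJB1 window lies at chr19:14518398-14518647 on the - strand, before 1 of the 3 listed starts of the gene, and holds separate matches starting 77 and 47 bases before the start. The HSPA6 window, at chr1:161524290-161524539 on the + strand, holds a single match and, 74 bases before the start, a 13-base run with 3 units. The HSPA8 window, at chr11:123062137-123062386 on the - strand, holds such 13-base runs 230 and 55 bases before the start. The HSP90AA1 window is at chr14:102087045-102087294 and the HSPD1 window at chr2:197499841-197500090, both on the - strand and each before 1 of 2 listed starts. HSPD1 has the longest run, of 18 bases, 245 bases before the start. Among 35116 start sites in the RefSeq table, 5.78% held GAANNTTC and 6.62% held TTCNNGAA in the 250 bases before the start, and 0.441% held a run of 3 units in either order, GAANNTTCNNGAA or TTCNNGAANNTTC. Of the 78 measured members, 67 matched a promoter entry by symbol. A 3-unit run was present in 6 of these: HSPA6, HSPA8 and HSP90AB1, whose log2 ratios were above 0, and DNAJB6, HSP90AA1 and HSPD1, whose ratios were below 0. The median log2 ratio of these 6 members was -0.04. At least 1 match of either motif was found before a start of 17 members, of which 12 had mean ratios above 0, and their median was 0.10. Per gene, 14% of the 27305 genes in the RefSeq table had a match of either motif before a start and 0.557% a 3-unit run, beside 25.4% and 8.96% of the 67 members. Of the other 50 members with an entry, 21 had mean ratios above 0, and their median was -0.07. The median over all measured genes was -0.002, and the ratios of genes that are not members were not split by match. Whether a match goes with the ratio was not tested. A match is a description of the letters only. The windows of BAG1, BAG3, DNAJC3 and HSPA9 held no match to either motif.

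Probes of 4 members that the results turn on are shown too, because what a probe reads is set by its 60 bases. All lie in coding sequence, and their positions are those of the array annotation (hg19).
HSPA6 probe: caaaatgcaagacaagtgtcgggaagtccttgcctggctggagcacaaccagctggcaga
HSPA6 second probe: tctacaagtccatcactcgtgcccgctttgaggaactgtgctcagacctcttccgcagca
HSPA8 probe: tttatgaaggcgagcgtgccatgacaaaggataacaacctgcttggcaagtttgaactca
BAG3 probe: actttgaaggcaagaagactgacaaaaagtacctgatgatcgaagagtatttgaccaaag
HSP90AA1 probe with 10 spots: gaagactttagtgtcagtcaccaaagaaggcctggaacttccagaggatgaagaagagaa
HSP90AA1 dimmest probe: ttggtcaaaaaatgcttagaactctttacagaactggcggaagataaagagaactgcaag
The HSPA6 probes lie at chr1:161496158-161496217 and chr1:161495332-161495391 and the BAG3 probe at chr10:121436388-121436447, on the + strand. The HSPA8 probe lies at chr11:122929478-122929537 and the HSP90AA1 probes at chr14:102549453-102549512 and chr14:102550163-102550222, on the - strand.

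Among the 78 measured members, 3 were more than 1.5-fold higher in ALDH+ cells (log2 ratio above 0.585) and 2 were more than 1.5-fold lower, where the ratio is the mean of both arrays. Over all 13720 measured genes, 1.51% were past 1.5-fold higher and 4.59% past 1.5-fold lower, against 3.85% and 2.56% of the members. With the array software's own log ratio these shares were 4.09% and 9.17% of all genes, and 4 members were past 1.5-fold higher (BAG3 added) and 3 lower (DNAJB13 added). The higher members were DNAJB1, HSPA6 and BAG1, and the lower ones were DNAJC3 and HSPA9. None (0) was past 2-fold. The median log2 ratio of the measured members was -0.04, with a range from -0.71 to 0.75, beside -0.002 for all measured genes. Their quartiles were -0.20 and 0.09, and those of all genes -0.19 and 0.15. Ratios were above 0 on both arrays for 25 members (32.1%, beside 33.7% of all genes) and below 0 on both for 34 (43.6%, beside 36.1%). In normalised intensity, 20 members (25.6%) had both ALDH+ values above both ALDH- values, as had 30.2% of all genes, and 29 (37.2%) had both below, as had 33.6%. The shares of members by sign and without overlap lay within 10 percentage points of those of all genes. The member shares past 1.5-fold rest on 3 and 2 genes, too few for such a comparison. The accounts that follow are of single genes and roles.

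**Figure D1:**
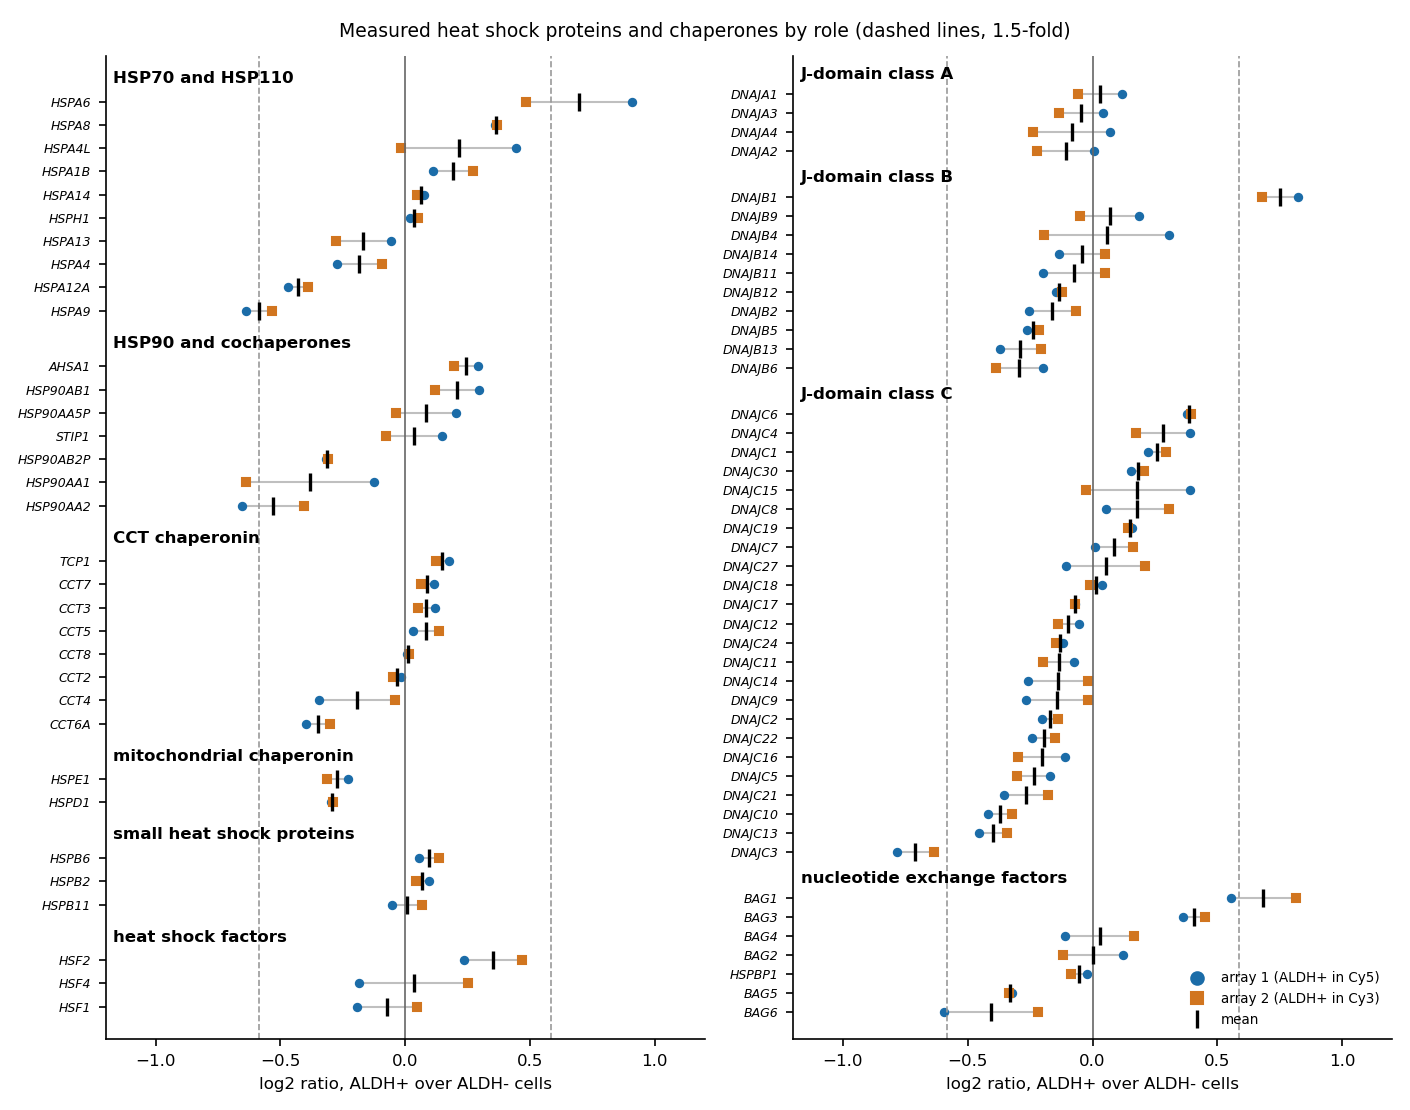
The log2 ratio of ALDH+ over ALDH- cells of each of the 78 measured members (horizontal axis), grouped by role, on array 1 (circles), on array 2 (squares) and as the mean of both (vertical ticks); dashed lines mark 1.5-fold. DNAJB1, HSPA6 and BAG1 have means to the right of the dashed lines, DNAJC3 lies to the left of them and HSPA9 on the left line.

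The arrays repeated each other moderately over the members. Pearson's r between their log2 ratios was 0.76 and Spearman's rho 0.71 over the 78 members, which share both extracts and are not independent. The sign was the same on both arrays for 59 members (75.6%, beside 69.7% of all genes), and the technical SD had a median of 0.10. HSP90AA1 had the largest, at 0.37. Across the 76 members with a gene length in RefSeq, rho between the log2 ratio and the length was -0.18, and over 11811 genes it was -0.16. The part of gene length in the ratios was not tested.

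**Figure D2:**
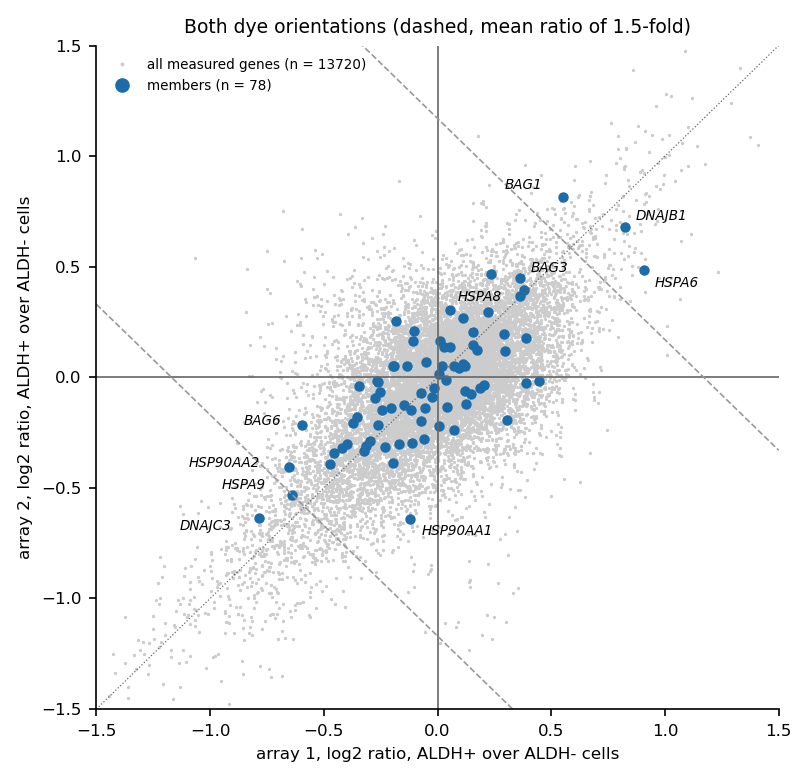
Log2 ratios of ALDH+ over ALDH- cells on array 1 (horizontal axis) and array 2 (vertical axis) for all 13720 measured genes (gray) and the 78 members (blue); the dotted line marks equal ratios, the dashed lines a mean of 1.5-fold, and 20 genes lie outside the plotted range. Most members sit inside the gray cloud, and DNAJB1, HSPA6, BAG1, DNAJC3 and HSPA9 lie at or beyond the dashed lines along the diagonal.

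Among the HSP70 genes, HSPA6 was the 1 past 1.5-fold higher in ALDH+ cells and HSPA9 the 1 past it lower. HSPA6, also called HSP70B', is a strictly inducible HSP70 that is close to silent in unstressed cells. Its normalised intensity (arbitrary units, comparable for 1 probe between arrays and populations) was 452.9 and 399.2 in ALDH+ cells on arrays 1 and 2, against 241.4 and 285.5 in ALDH- cells. Both ALDH+ values were above both ALDH- values, and the log2 ratio was 0.70 ± 0.30 (technical SD, 2 arrays), or 1.62-fold. The array 2 ratio alone, 0.48, was short of 1.5-fold. The second HSPA6 probe shown above, which lies 5' of the first, gave 0.54 and 0.37, and another, not well above background, gave 0.22 and -0.13. HSPA6 has a near-identical copy, HSPA7, whose transcripts could not be separated from it here.

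HSPA8, the constitutive HSC70, gave 5568 and 5248 in ALDH+ cells and 4335 and 4073 in ALDH- cells. The populations did not overlap, and the ratios, 0.361 and 0.366, were nearly equal on the arrays (mean 0.36, 1.29-fold). With median centring HSPA8 was at 0.60, past 1.5-fold. HSPA1B, which with HSPA1A encodes the major inducible HSP70, had 8277 and 9015 against 7653 and 7475 in ALDH- cells, a smaller difference in the same direction (0.19 ± 0.11). HSPA1A itself, with 10 spots for its probe, was not well above background on either array in either population, so its probe gave no comparison. The coding sequences of HSPA1A and HSPA1B are near-identical, and whether the HSPA1B probe reads 1 or both transcripts was not tested. The HSP110 gene HSPH1 had a ratio close to 0 (0.04 ± 0.02), and its second probe gave 0.05.

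HSPA9, called mortalin, is the HSP70 of the mitochondrial matrix and takes part in protein import. It gave 2587 and 2618 in ALDH+ cells and 4025 and 3787 in ALDH- cells. Both ALDH- values were above both ALDH+ values, and the log2 ratio of -0.585 ± 0.074 lay at the 1.5-fold line itself. With no background correction, an offset of 10 or plain subtraction it fell just short of that line (-0.584, -0.579 and -0.582), and with median centring it was -0.39. HSPA12A, a distant relative of HSP70, was next lowest, at -0.43 ± 0.06. HSPA4L was 0.45 on array 1 and -0.02 on array 2, with the signal of ALDH- cells above background on 1 array only, so that its direction rested on 1 array. The 10 measured HSP70 and HSP110 genes had a median log2 ratio of 0.05. Of them, 5 were above 0 on both arrays and 4 below, beside 33.7% and 36.1% of all genes. HSPA4, an HSP110 relative in the cytosol, was among these 4, with both of its probes below 0 (-0.18 and -0.08).

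The 4 class A J-domain genes are built like the bacterial DnaJ. None (0) of them had the same sign on both arrays, beside 69.7% of all genes. Their mean ratios ran from -0.11 for DNAJA2 to 0.03 for DNAJA1. Class B held the member with the highest ratio of all, DNAJB1 (HSP40), the inducible partner of HSP70. DNAJB1 gave 2156 and 1973 in ALDH+ cells, against 1218 and 1230 in ALDH- cells. The populations were well apart in relation to the gap between the arrays, with a log2 ratio of 0.75 ± 0.10 (0.82 and 0.68), or 1.69-fold. It was above 99.4% of the measured genes. The other 9 measured class B genes lay between -0.29 and 0.07, so that DNAJB1 stood apart from its own class, whose median was -0.11. Of these genes, 5 were below 0 on both arrays, beside 36.1% of all genes. DNAJB2 was among the 5, but its second, dimmer probe was above 0 on both arrays (0.24 and 0.22).

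The lowest of class B was DNAJB6, a suppressor of protein aggregation with a long nuclear and a short cytosolic isoform, and its probes did not give 1 direction. Both probes assigned to the short transcript gave ratios below 0 (-0.29 and -0.20), and the probe assigned to the long transcript gave 0.35, with 0.39 and 0.30 on the arrays. The gene's value in the counts is that of the brightest probe and so describes the short transcript.

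Class C, the J-domain proteins with specialised partners, had 24 measured genes. Of these, 14 were below 0 on both arrays and 7 above, beside 36.1% and 33.7% of all genes. The median log2 ratio of the class was -0.11 (-0.09 on array 1 and -0.05 on array 2). DNAJC3 (p58IPK), which works in the endoplasmic reticulum and inhibits the kinase PERK, was the lowest member. Its intensity was 1229 and 1301 in ALDH+ cells and 2118 and 2021 in ALDH- cells. Both ALDH- values were above both ALDH+ values, and the log2 ratio was -0.71 ± 0.11, or 1.64-fold lower. DNAJC10, an endoplasmic reticulum reductase, was also lower, by both of its probes (-0.37 and -0.30), as was the endosomal DNAJC13 (-0.40 ± 0.08). The highest of class C was DNAJC6 (auxilin), which uncoats clathrin vesicles with HSPA8. DNAJC6 gave 2236 and 2261 against 1718 on both arrays in ALDH- cells, with no overlap and a ratio of 0.39 ± 0.01. DNAJC30 had a probe at 0.18 and another at -0.53, each with the same sign on both arrays, and therefore had no settled direction.

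The genes grouped by name as nucleotide exchange factors were split between higher BAG1 and BAG3 and lower BAG5 and BAG6. BAG1, which links HSP70 to the proteasome, gave 2688 and 2770 in ALDH+ cells and 1832 and 1575 in ALDH- cells. The populations did not overlap, and the log2 ratio was 0.68 ± 0.19 (1.61-fold), although array 1 alone, at 0.55, fell short of 1.5-fold. All 3 BAG1 probes agreed, at 0.68, 0.70 and 0.83, and a pair of them share 23 bases. BAG3, an inducible factor that directs clients to autophagy, gave 268.6 and 268.5 against 208.8 and 196.7. Its ALDH+ values were nearly identical on the arrays, and the ratio of 0.41 ± 0.06 (1.33-fold) did not reach 1.5-fold. With the array software's own log ratio it was 0.65, past 1.5-fold. BAG5 (-0.33 ± 0.006) and BAG6 (-0.41 ± 0.27), a quality control factor for tail-anchored proteins, were lower on both arrays. The second BAG6 probe gave -0.18, and with median centring BAG6 was at -0.02. The remaining 3 of the 7 measured factors, BAG2, BAG4 and HSPBP1, had mean ratios between -0.06 and 0.03, and the median of the role was 0.002.

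HSP90 alpha was lower in ALDH+ cells by all 3 of its probes, and no other HSP90 gene with several probes had probes of 1 sign. HSP90AA1, the inducible cytosolic HSP90 alpha, gave 62170 and 52229 in ALDH+ cells and 67693 and 81346 in ALDH- cells with its brightest probe. ALDH+ cells were lower on both arrays, but by unequal amounts (-0.12 and -0.64, mean -0.38 ± 0.37). The other HSP90AA1 probes, both shown above, repeated more closely, at -0.79 and -0.72 for the probe with 10 spots and at -0.39 and -0.26 for the dimmest. All 3 probes lay below 0 on both arrays, and by the 10-spot probe the gene would have passed 1.5-fold (-0.75). A probe for HSP90AA2, a near-identical copy whose transcripts could not be separated from HSP90AA1 here, was at -0.53 ± 0.18. HSP90AB1, the constitutive HSP90 beta, gave 7719 and 6805 against 6293 and 6270, a ratio of 0.21 ± 0.12. Its second probe was at -0.09, of the opposite sign on both arrays, so HSP90 beta had no settled direction. AHSA1, which stimulates the ATPase of HSP90, was 0.24 ± 0.07, with 10 spots for its probe. STIP1, the adaptor between HSP70 and HSP90, was close to 0 by both probes (0.036 and 0.035). When arrays were median-centred instead of loess-normalized, the ratio of HSP90AA1 had the opposite sign (0.11). Of 7 measured genes, 2 were above 0 on both arrays and 3 below, beside 33.7% and 36.1% of all genes. The 2 were AHSA1 and HSP90AB1. The 3 were HSP90AA1, its copy HSP90AA2 and HSP90AB2P, whose probes gave -0.31 and 0.37. These counts thus include a copy and genes with no settled direction. The median of the role was 0.04, but it was 0.15 on array 1 and -0.08 on array 2 and so had no settled sign.

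**Figure D3:**
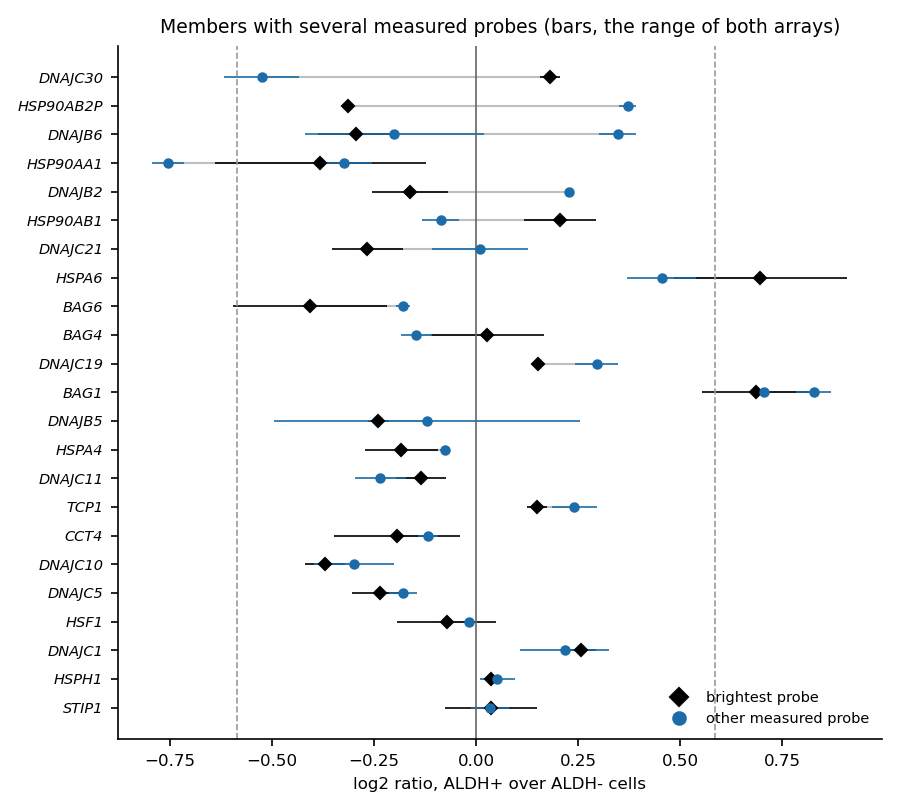
Mean log2 ratio of ALDH+ over ALDH- cells (horizontal axis) of each measured probe of the 23 members with several measured probes, ordered by the gap between their probes; diamonds mark the brightest probe of a gene, circles its other probes, horizontal bars the range of both arrays and dashed lines 1.5-fold. The probes of DNAJC30, HSP90AB2P and DNAJB6 lie furthest apart and on both sides of 0. The gap of BAG1, 0.14, is the median gap.

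Over the 23 members with several measured probes, the gap between the highest and the lowest probe had a median of 0.14 on the log2 scale. It exceeded 0.5 for 3 of them, DNAJC30, HSP90AB2P and DNAJB6, and 7 had probes with means of opposite sign. For these genes a single ratio is less certain than the SD between arrays shows.

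Ratios in the folding chambers stayed within 1.5-fold. The CCT ring had 8 measured genes, between -0.35 for CCT6A and 0.15 for TCP1, with a median of 0.05. CCT6A gave 5162 and 5153 in ALDH+ cells and 6795 and 6352 in ALDH- cells. It was the lowest subunit on both arrays (-0.40 and -0.30). On both arrays 5 subunits were above 0, led by TCP1, and 3 below (CCT6A, CCT4 and CCT2), beside 33.7% and 36.1% of all genes. With median centring CCT6A was at -0.095. The subunits of this ring work in equal numbers, and none (0) was past 1.5-fold. In the mitochondrial chaperonin, HSPD1 (HSP60) gave 33441 and 33388 against 41083 and 40754, and its lid HSPE1 (HSP10) gave 24522 and 23623 against 28749 and 29378. Both genes were lower in ALDH+ cells with no overlap, at -0.29 ± 0.007 and -0.27 ± 0.06, or 1.22-fold and 1.21-fold. They lie head to head on chromosome 2. With median centring instead of loess both ratios had the opposite sign, 0.14 and 0.13.

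Small heat shock proteins were mostly out of reach. Of 8 genes, 3 were measured: HSPB6 (0.10 ± 0.06), HSPB2 (0.07 ± 0.04) and HSPB11 (0.01 ± 0.085), now named IFT25 in RefSeq, a protein of the cilium. For HSPB6 and HSPB2 the ALDH- signal exceeded background on only 1 array. HSPB1 (HSP27), abundant in many epithelial tumors, was not measured by either of its probes, 1 of which exceeded background only in ALDH- cells on 1 array, and this gives no statement about its level. In all, 22 members were not measured, 13 of them above background on no array in either population, among them the testis genes DNAJB7 and DNAJB8.

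Of the factors that drive these genes, HSF1 had 9748 and 11016 in ALDH+ cells and 11142 and 10645 in ALDH- cells. These values overlapped, and the ratios were -0.19 and 0.05 (mean -0.07 ± 0.17), with the second measured probe at -0.02. With median centring the ratio of HSF1 was 0.24. HSF2, which can form trimers with HSF1, gave 567.3 and 587.4 against 482 and 424.4. Its ALDH+ values were higher on both arrays (0.35 ± 0.17, 1.28-fold). HSF4 differed in sign between the arrays, with -0.18 and 0.25. Transcript levels do not measure the activity of these factors, which is set by their protein state.

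The heat-inducible members, a list of 15 genes of which 13 were measured, had a median log2 ratio of 0.19, beside -0.04 for all measured members and -0.002 for all measured genes. On both arrays 7 of them were above 0 (DNAJB1, HSPA6, BAG3, HSPA8, AHSA1, HSPA1B and HSPH1) and 3 below (HSP90AA1, HSPD1 and HSPE1). The shares of all genes were 33.7% above and 36.1% below. The median of the list was 0.15 on array 1 and 0.05 on array 2, and without the filter on dim probes, with the unmeasured HSPA1A and HSPB1 added, it was 0.04. The inducible genes thus did not take 1 direction. By the brightest probes, DNAJB1 and HSPA6 were past 1.5-fold higher and none (0) was past it lower, beside 1.51% and 4.59% of all genes. HSPA6 fell short on array 2 alone (0.48) and with the mean over its measured probes (0.575). The 10-spot probe of HSP90AA1 was past 1.5-fold lower (-0.75). With median centring the ratios of HSP90AA1, HSPD1 and HSPE1 were not below 0.

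Other targets of heat shock factors, which are not members, also lay on both sides of 0. Of 12 measured, 6 were above 0 on both arrays and 4 below, beside 33.7% and 36.1% of all genes. Their median was 0.12 (0.24 on array 1 and 0.03 on array 2). ZFAND2A (AIRAP), a proteasome-associated protein, was highest at 0.57 ± 0.29, and HMOX1, heme oxygenase, also a target of NRF2, was lowest at -0.85 ± 0.03. The next lowest, SERPINH1, was at -0.38. The immediate early genes, transcribed within minutes of a stimulus and of cell handling, were also mostly higher in ALDH+ cells. Of 18 listed, 16 were measured, with 10 above 0 on both arrays and 1 below, beside 33.7% and 36.1% of all genes. Past 1.5-fold, 6 were higher and 0 lower, beside 1.51% and 4.59% of all genes. Their median was 0.26 (0.15 on array 1 and 0.35 on array 2), from -0.22 for ZFP36 to 1.00 for ATF3. Their part in the ratios of the heat-inducible members was not tested.

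**Figure D4:**
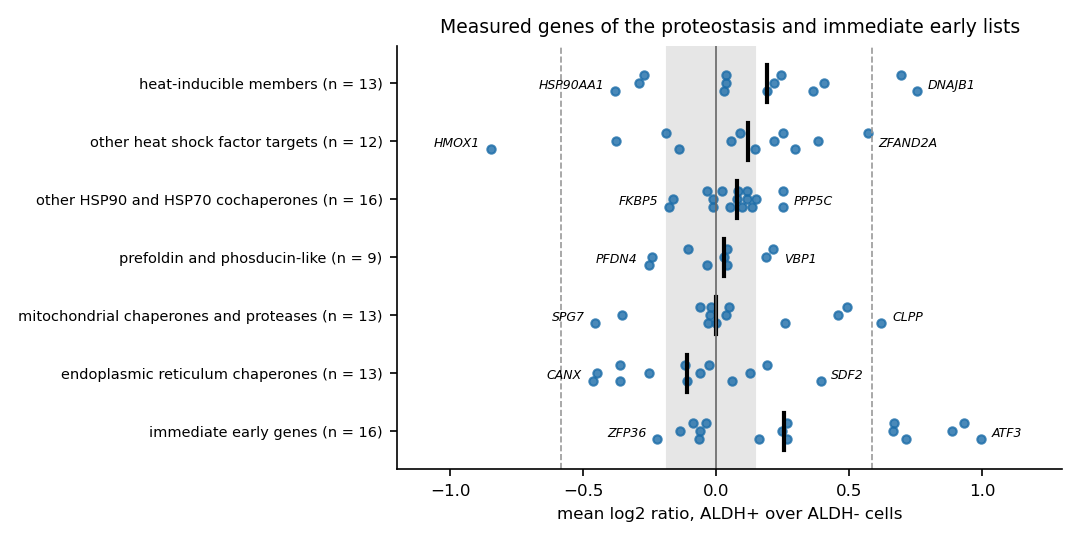
Mean log2 ratio of ALDH+ over ALDH- cells (horizontal axis) of each measured gene of 7 lists, with the lowest and the highest gene named; black bars mark the list medians, the gray band the range between the quartiles of all measured genes and dashed lines 1.5-fold. The medians run from -0.11 for endoplasmic reticulum chaperones to 0.26 for immediate early genes, and each list has genes on both sides of 0.

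Cochaperones of HSP90 and HSP70 that are not members had ratios near 0: the 16 measured of 17 lay between -0.18 for FKBP5, an immunophilin, and 0.25 for PPP5C, a phosphatase bound to HSP90, with a median of 0.08. Prefoldin and phosducin-like genes, which hand clients to CCT, lay between -0.26 for PFDN4 and 0.21 for VBP1, with a median of 0.03 over 9 genes. Chaperones and proteases of mitochondria had a median of -0.001 over 13 genes, with CLPP, the peptidase of the matrix, at 0.62 ± 0.20 and SPG7, a protease of the inner membrane, at -0.46 ± 0.15. In this list, 1 gene (CLPP) was past 1.5-fold higher and 0 were past it lower, beside 1.51% and 4.59% of all genes. Chaperones of the endoplasmic reticulum had a median of -0.11 over 13 genes. Of these, 6 were below 0 on both arrays and 3 above, beside 36.1% and 33.7% of all genes. They ran from CANX (calnexin) at -0.47 ± 0.05 to SDF2 at 0.39 ± 0.29. With the mean over the measured probes of CANX in place of the brightest, this gene was at -0.13. Members of that compartment differed among themselves, and those named here are a selection that does not give the balance of directions. DNAJC3 (-0.71), DNAJC10 (-0.37) and HSPA13 (-0.17) were below 0 on both arrays. DNAJC1 was above 0 on both arrays by both of its probes (0.26 and 0.22). DNAJB11 (-0.07) and DNAJB9 (0.07) differed in sign between the arrays.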

How the data were processed

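RNA of ALDH+ and ALDH- RMG1 cells (1 extract each) was labeled from oligo dT primers and hybridized on 2 two-color 60-mer arrays of the same slide with swapped dyes. The arrays count as 1 replicate, and no p-value is given. For each spot, the authors deposited the intensity and the background around it, read with Feature Extraction 10.7.3.1 (header; the submitters' processing notes give 8.5.1.1), with no normalization. The authors also deposited that software's log10 ratio and its flags, of which the flags for signal above background, saturation and outliers were used. A joined table of both arrays, with 6 columns of per-sample values, was not used.

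Background was corrected by normexp (offset 50) and dyes by loess within each array, using limma 3.58.1 in R 4.3.3, with control and outlier spots left out (531 and 519 outliers among 43118 gene probe spots), and ratios were turned to ALDH+ over ALDH- cells. No gene probe spot (0) was saturated. Intensities were brought to 1 scale with Aquantile. The normalization was tested on simulated data. Gene summaries and plots were made with pandas 2.3.3, numpy 2.4.6 and matplotlib 3.10.9 in Python 3.11.15. A probe was measured when the software set more than 50% of its spots well above background on each array for ALDH+ or for ALDH- cells. The brightest probe stood for a gene. Members kept the name on the array, and other genes the RefSeq symbol where the accession matched (25422 probes, 120 of the 132 probes of members). Precision is limited by the number of arrays.

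The members and lists were chosen with earlier results of these data known. Genes named were the members past 1.5-fold with the same sign on both arrays, the highest and the lowest of each role and list, and HSPA1A, HSPA8, HSPH1, HSP90AA1, DNAJB1, HSPB1, HSPD1, BAG3 and HSF1; other members named were chosen after their values were seen. The alternatives were an offset of 10, plain subtraction (floor 1) or no correction of the background, background from the negative control spots (floor 50), the software's log ratio, median centring, no filter, a filter on both populations, the mean over probes, each array alone and a 2-fold threshold. Protein motifs were not analysed here.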

Additional observations from a re-analysis of the deposited data

How the results depend on the processing

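DNAJB1 was past 1.5-fold higher under each of the 11 settings other than the 2-fold threshold, whereas HSPA6 fell short with the mean over its measured probes and on array 2 alone, and BAG1 on array 1 alone. No member (0) was past 2-fold in either direction. DNAJC3 was past 1.5-fold lower except with median centring, under which no member (0) was. With no background correction, an offset of 10 or plain subtraction, 1 member was past 1.5-fold lower (DNAJC3, with HSPA9 just short of the line), and with each array alone the number was between 2 and 4. Array 1 alone added BAG6 and HSP90AA2, and array 2 alone had HSP90AA1 in place of HSPA9. Median centring moved the median of all genes to 0.56 on array 1 and to -0.43 on array 2 (0.073 in mean), so that 8 members were above 0 on both arrays and 2 below, and it turned the split of members past 1.5-fold to 4 higher (HSPA8 added) and 0 lower. Over all genes the shares past 1.5-fold were then 3.72% higher and 2.94% lower.

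The median of the members was -0.023 with an offset of 10, 0 with the negative controls as background, 0.089 with median centring, 0.006 without the filter, -0.041 with the filter on both populations and from -0.044 to -0.038 with each array alone. With median centring the medians were 0.194 for HSP70 and HSP110, 0.036 for small heat shock proteins, 0.135 for the mitochondrial chaperonin, 0.045 for class B, -0.020 for class C, 0.253 for CCT, 0.078 for exchange factors, 0.405 for other heat shock factor targets, 0.198 for other cochaperones, 0.116 for mitochondrial and 0.097 for endoplasmic reticulum chaperones. The small heat shock proteins had 0.102 with an offset of 10, 0.024 with negative controls, 0.052 with the software's ratio, 0.013 without the filter and 0.009 with the filter on both populations. In the same order, CCT had 0.067, 0.057, 0.063 and, without the filter, 0.073. Class C had -0.081 without background correction, -0.054 with negative controls and -0.036 without the filter. Class B had -0.041 without the filter and -0.045 with the mean over probes, which gave -0.056 for exchange factors. HSP70 and HSP110 had 0.076 with the software's ratio, the mitochondrial chaperonin -0.202 with negative controls, and the heat-inducible members 0.036 without the filter and 0.114 with the filter on both populations. With each array alone the medians ran from 0.016 to 0.048 for HSP70 and HSP110, 0.054 to 0.068 for small heat shock proteins, -0.076 to 0.148 for HSP90 and cochaperones, -0.178 to 0.055 for class A, -0.184 to 0.253 for heat shock factors, -0.172 to -0.096 for class B, -0.090 to -0.049 for class C, 0.019 to 0.032 for CCT, -0.088 to -0.024 for exchange factors, 0.051 to 0.148 for the heat-inducible members, 0.035 to 0.065 for other cochaperones, -0.118 to 0.085 for prefoldin, 0.048 to 0.099 for mitochondrial and -0.245 to -0.070 for endoplasmic reticulum chaperones. The cause of these shifts was not tested. Of 373 values of the 34 named genes, 49 moved by more than the technical SD and 10 were at 0 or had the opposite sign, none (0) of them for a member past 1.5-fold.

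No paired analysis was possible because each population gave 1 extract and nothing was tested. Dim probes, such as those of the small heat shock proteins, and genes with near-identical copies are the least certain.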
